A study of Mus musculus with 6 samples.

Results

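The histone deacetylases Hdac1 to Hdac10 were followed in sorted mouse islet β cells in which Brg1 and Brm, the alternative ATPase subunits of the Swi/Snf remodeller, were both removed. The members are the 10 rows with these gene names, out of 24421 rows in the expression table, and all 10 were present. Cells labelled βDKO came from mice carrying MIP-CreERT with Brg1f/f (Smarca4) and Brm-/- (Smarca2). Control cells came from mice carrying MIP-CreERT with Brg1f/+ and Brm+/-. The controls therefore have only 1 intact copy of Brm, and only 1 of Brg1 once Cre is active. Both groups carried the R26LSL-tdTomato reporter in the heterozygous state, received tamoxifen, were 7 weeks old and had a mixed C57BL/6J and 129SV background. MIP-CreERT is a tamoxifen-dependent Cre driven by the mouse insulin promoter, on a transgene known to carry a growth hormone sequence. Islets were dispersed and the cells sorted by flow cytometry. There were 3 βDKO and 3 control RNA-seq libraries. The labels do not say whether a library is 1 animal or a pool, so the p-values measure the spread between these libraries, which may be technical.

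Histone deacetylases remove acetyl groups from lysines of histones and other proteins. Class I enzymes (Hdac1, Hdac2, Hdac3, Hdac8) are mainly nuclear and, except for Hdac8, work inside corepressor complexes such as NuRD, CoREST, Sin3 and NCoR. Class IIa enzymes (Hdac4, Hdac5, Hdac7, Hdac9) have weak catalytic activity of their own, bind Mef2 transcription factors, and leave the nucleus when kinases phosphorylate them and 14-3-3 proteins bind. In the mouse pancreas, Hdac4, Hdac5 and Hdac9 are known to affect the numbers of β and δ cells. Class IIb comprises Hdac6, a mostly cytoplasmic tubulin deacetylase, and Hdac10, a polyamine deacetylase.

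Depth was 27199100 to 28890791 recovered reads in βDKO libraries and 25389124 to 31282333 in controls. Ins1 and Ins2 together held 6.37% to 8.93% of TPM in βDKO and 42.6% to 48.3% in controls, and TPM libraries share a fixed total. The median log2 fold change of all 10404 genes tested was 0.83 on TPM and 0.03 once each library had been rescaled by its median-of-ratios size factor. Each result is therefore given on both scales, and "rose" or "fell" is used where a gene passed an adjusted p of 0.05 in that direction on both. All 2432 genes called higher after rescaling were also called higher on TPM, so for a rise TPM adds nothing to the rescaled call. All 480 genes called lower on TPM were also called lower after rescaling. The mRNA of the targeted genes was not called lower on TPM (limma adjusted p = 0.667 for Smarca4 and 0.684 for Smarca2). Smarca4 was at 10.5 to 11.4 TPM in βDKO and 8.997 to 13.5 TPM in controls, and Smarca2 at 22.4 to 25.04 TPM in βDKO and 14.1 to 27.5 TPM in controls. After rescaling the log2 fold changes were −0.86 (limma adjusted p = 5.62e-04) for Smarca4 and −0.71 (limma adjusted p = 0.0101) for Smarca2. A gene's TPM here takes in its undeleted exons as well. All 10 β-cell markers on the list passed the filter of 5 TPM in 3 libraries, and they summed to 68240 to 96568 TPM in βDKO and 468571 to 535922 TPM in controls. Ins1 and Ins2, which are on that list, made up most of the sum in every library. The 7 α-cell markers summed to 556.4 to 846.7 TPM in βDKO and 2352.8 to 5074.0 TPM in controls. The 3 PP- and ε-cell markers summed to 607.7 to 890.7 TPM in βDKO and 1591.5 to 4018.5 TPM in controls. The 4 δ-cell markers overlapped on TPM, at 1967.9 to 2541.7 TPM in βDKO and 2520.3 to 5002.6 TPM in controls. The 5 ductal markers summed to 198.3 to 206.5 TPM in βDKO and 247.3 to 356.3 TPM in controls. The 14 immune-cell markers summed to 10.1 to 15.05 TPM in βDKO and 126.3 to 243.0 TPM in controls, although the pan-leukocyte gene Ptprc was at most 0.0775 TPM in any library. The 7 Schwann-cell and neuronal markers summed to 439.5 to 460.3 TPM in βDKO and 112.2 to 159.2 TPM in controls, of which Snap25, a gene β cells express too, was 388.9 to 409.9 TPM in βDKO and 51.0 to 97.3 TPM in controls. The other 6 of these markers summed to 50.4 to 51.8 TPM in βDKO and 45.3 to 61.9 TPM in controls, which overlap on this scale. Marker sums are given on TPM only. Size factors were 1.34 to 1.38 in βDKO and 0.643 to 0.810 in controls, so rescaling lowers βDKO sums relative to controls. An overlap or a gap on TPM therefore need not hold after rescaling. Of the 6 libraries, control 1 held the most acinar transcripts, with 533.6 TPM over 10 markers against 17.3 to 134.3 TPM in the other 5 libraries.

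Across the family, Hdac5 and Hdac9 rose in βDKO, Hdac6 was lower after rescaling, and most class I members moved with the typical gene. On TPM, 7 of the 9 members past the expression filter were called higher and none lower, where 81.4% of all genes tested were called higher and 4.61% lower (86.0% in either direction). By limma's unadjusted p under 0.05 there were also 0 lower members on TPM. Rescaled, 2 were called higher (Hdac5 and Hdac9) and 1 lower (Hdac6), where 23.4% of all genes were called higher and 21.1% lower (44.5% in either direction). All 3 βDKO libraries exceeded all 3 controls for 7 of the 9 on TPM and for 5 when rescaled, where 83.2% and 31.0% of all genes did so. They lay below all controls for 0 of the 9 on TPM and for 1 when rescaled, where 4.82% and 27.0% of all genes did so. The median log2 fold change of the 9 members was 0.94 on TPM, where all genes had 0.83, and 0.14 after rescaling, where all genes had 0.03. The counts called lie near what the shares of all genes would give for 9 genes. Hdac9 and Hdac10 passed the filter through their βDKO values, and Hdac7 was below it, so the 9 do not stand for the whole family. With a filter of 1 TPM, under which all 10 were tested, 8 were higher and 0 lower on TPM (76.0% and 6.04% of all genes), and 2 up and 1 down when rescaled (22.4% and 21.2% of all genes).

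**Figure D1:**
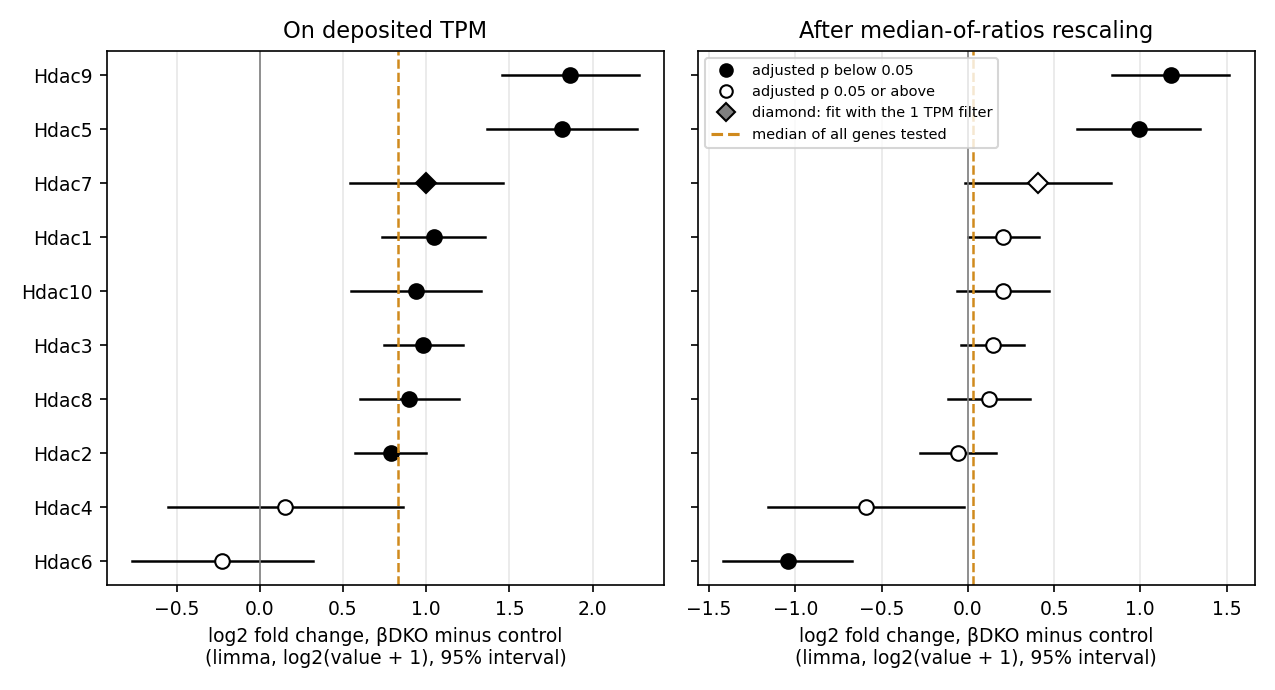
Log2 fold change (βDKO minus control, on log2(value + 1)) of each deacetylase on TPM and after rescaling, with 95% intervals from limma. Filled symbols passed an adjusted p of 0.05, diamonds come from the fit with the 1 TPM filter, and dashed lines mark the median of all genes tested (0.83 and 0.03). Hdac5 and Hdac9 lie above that median on both scales and Hdac6 below it.

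The class IIa members did not move together. Hdac9, a corepressor of Mef2 factors that is also made in a short form without the catalytic domain, is a gene of chromosome 12 (34047580 to 34917095, minus strand, mm10). It was at 12.7, 10.8 and 9.26 TPM in βDKO 1 to 3, against 1.88, 2.80 and 2.12 TPM in controls 1 to 3. Every βDKO library lay above every control library. The mean was 4.81-fold higher on TPM and 2.68-fold higher after rescaling. On TPM its log2 fold change stood at 1.87 (SE 0.18, limma adjusted p = 5.21e-05), and on the rescaled scale 1.18 (SE 0.15, limma adjusted p = 5.04e-04). Hdac9 passed the filter of 5 TPM only through its βDKO values. Under the filter of 1 TPM, which every library passed, the limma adjusted p was 7.86e-05 on TPM and 7.31e-04 after rescaling. The pseudocount of 1 weighs on a gene at this level, and with 0.1 in its place the rescaled log2 fold change was 1.39. The table holds gene totals, so the short and long forms of Hdac9 were not told apart.

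Hdac5, the class IIa enzyme whose nuclear export by kinases is best known from heart and muscle, is a gene of chromosome 11 (102194432 to 102230166, minus strand). It was at 72.8, 72.7 and 50.9 TPM in βDKO 1 to 3, against 14.3, 21.7 and 17.6 TPM in controls 1 to 3. The groups did not overlap, and βDKO 3 was the lowest of its group, as it was for Hdac9. The mean was 3.66-fold higher on TPM and 2.05-fold higher after rescaling. In log2 terms the difference was 1.82 on TPM (SE 0.20, limma adjusted p = 9.2e-05) and 0.99 when rescaled (SE 0.15, limma adjusted p = 0.00147). Snap25 and, on TPM, the summed endothelial markers were higher in the libraries in which Hdac5 and Hdac9 were high. The summed β-cell, α-cell, PP- and ε-cell, ductal and immune markers were lower there. The part of these markers in these results was not tested. In bulk RNA, more cells of a type and more RNA per cell cannot be told apart.

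Hdac4, the remaining well-studied class IIa enzyme (chromosome 1, 91928779 to 92195699, minus strand), was at 8.25, 7.85 and 8.85 TPM in βDKO 1 to 3, against 3.87, 10.04 and 9.92 TPM in controls 1 to 3. Control 1 stood below all βDKO libraries and the other controls above them. The log2 fold change on TPM came to 0.15 (SE 0.31, limma adjusted p = 0.645), and the rescaled one to −0.59 (95% interval −1.16 to −0.02, limma adjusted p = 0.0844). Without control 1 the values were −0.24 (limma adjusted p = 0.0703) on TPM and −0.91 (limma adjusted p = 7.8e-04) after rescaling, so 1 library decides the call. Exons of Hdac4 share 3536 bases with the antisense transcript Gm26720, and without stated strand use its reads cannot be told from those of Hdac4.

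Hdac7, known for its roles in endothelial cells and thymocytes, is a gene of chromosome 15 (97792664 to 97844502, minus strand). It was at 4.16, 4.16 and 3.74 TPM in βDKO 1 to 3, against 1.13, 2.26 and 1.27 TPM in controls 1 to 3. The groups did not overlap on TPM, and after rescaling the lowest βDKO library and control 2 were nearly level, at 2.80 in each. The mean was 2.59-fold higher on TPM and 1.46-fold higher after rescaling. With the filter of 1 TPM the log2 fold change was 1.001 (limma adjusted p = 0.00213) on TPM and 0.41 (95% interval −0.02 to 0.83, limma adjusted p = 0.109) after rescaling. The pseudocount of 1 weighs on these log2 values at so low a level. The rescaled value was called on recovered reads with limma-voom (0.58, adjusted p = 0.0352) and without control 2 (0.58, limma adjusted p = 0.0261). The 8 endothelial markers, of which 2 exceeded 1 TPM in any library, summed to 23.95 to 28.9 TPM in βDKO and 5.90 to 12.1 TPM in controls. Esam was at 23.8 to 28.6 TPM in βDKO and 5.81 to 9.19 TPM in controls. It made up nearly all of the sum except in control 1, where it was 7.39 of 12.1 TPM. Of the defining endothelial genes, Cdh5 was at 0 in every library except control 1 (0.135 TPM). Pecam1 was at most 0.153 TPM in any library, also in control 1. Exons of Hdac7 share 29 bases with Slc48a1 on the opposite strand, which was at 89.5 to 92.4 TPM in βDKO and 52.1 to 67.1 TPM in controls.

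The promoters of Hdac5, Hdac9 and Hdac6, the members called after rescaling, are shown beside that of Hdac4, a class IIa gene that was not called, because class IIa proteins bind Mef2 factors. RefSeq (GRCm38.p6) gave promoter windows for 7 of the 10 members. Hdac1, Hdac3 and Hdac10 were not matched. The Hdac4 window lies inside the GENCODE span of the gene (91928779 to 92195699), so it is an inner start, and the outer start was not searched. The 250 bases before an annotated start were read 5′ to 3′ on the gene's strand and searched on both strands for the MEF2 consensus of 10 letters, for CCAAT (the NF-Y box) and for GGGCGG (the Sp1 box). The motifs were chosen after the sequences were seen. Capitals mark the matches, or their reverse complement. These motifs do not overlap each other in the windows printed.
Hdac5, chr11:102230173-102230422, minus strand: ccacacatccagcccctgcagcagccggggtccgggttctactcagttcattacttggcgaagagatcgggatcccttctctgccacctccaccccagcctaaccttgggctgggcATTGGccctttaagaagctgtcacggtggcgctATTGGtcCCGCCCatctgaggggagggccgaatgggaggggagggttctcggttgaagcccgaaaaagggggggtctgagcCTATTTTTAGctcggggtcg
Hdac9, outer start, chr12:34917096-34917345, minus strand: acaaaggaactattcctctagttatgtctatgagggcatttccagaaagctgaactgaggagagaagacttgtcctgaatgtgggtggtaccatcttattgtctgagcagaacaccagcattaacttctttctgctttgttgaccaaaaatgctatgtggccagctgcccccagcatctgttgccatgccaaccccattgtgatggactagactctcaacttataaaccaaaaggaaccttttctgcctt
Hdac9, inner start, chr12:34528890-34529139, minus strand: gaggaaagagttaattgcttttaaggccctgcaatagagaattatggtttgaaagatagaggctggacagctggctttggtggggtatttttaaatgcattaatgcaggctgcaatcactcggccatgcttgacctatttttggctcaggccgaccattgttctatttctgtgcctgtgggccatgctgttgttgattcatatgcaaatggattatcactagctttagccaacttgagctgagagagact
Hdac4, chr1:92180342-92180591, minus strand: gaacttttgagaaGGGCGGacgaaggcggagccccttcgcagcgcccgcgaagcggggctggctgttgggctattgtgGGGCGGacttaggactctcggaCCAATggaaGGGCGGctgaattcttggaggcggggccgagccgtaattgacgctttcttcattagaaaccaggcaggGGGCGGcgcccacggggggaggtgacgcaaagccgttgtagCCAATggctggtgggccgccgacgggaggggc
Hdac6, chrX:7947890-7948139, minus strand: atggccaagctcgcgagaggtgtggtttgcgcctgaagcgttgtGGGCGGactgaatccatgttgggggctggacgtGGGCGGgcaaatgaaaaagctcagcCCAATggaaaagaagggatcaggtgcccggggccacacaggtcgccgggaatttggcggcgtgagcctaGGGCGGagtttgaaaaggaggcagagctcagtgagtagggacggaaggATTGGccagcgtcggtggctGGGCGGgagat
The Hdac5 window held a MEF2 match that began 20 bases before the start, a motif found in 2.92% of 32851 promoter windows of the same length. No other window of the family held it. CCAAT was found in 33.8% of all windows and GGGCGG in 32.7%. The windows of Hdac4 and Hdac6 held 4 GGGCGG and 2 CCAAT matches each, that of Hdac5 held 1 and 2, and the Hdac9 windows held neither. The G and C content was 60.8% for Hdac5, 44.4% and 43.6% for Hdac9, 65.2% for Hdac4 and 61.2% for Hdac6. A match describes letters in the sequence and does not show that a factor binds there.

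**Figure D2:**
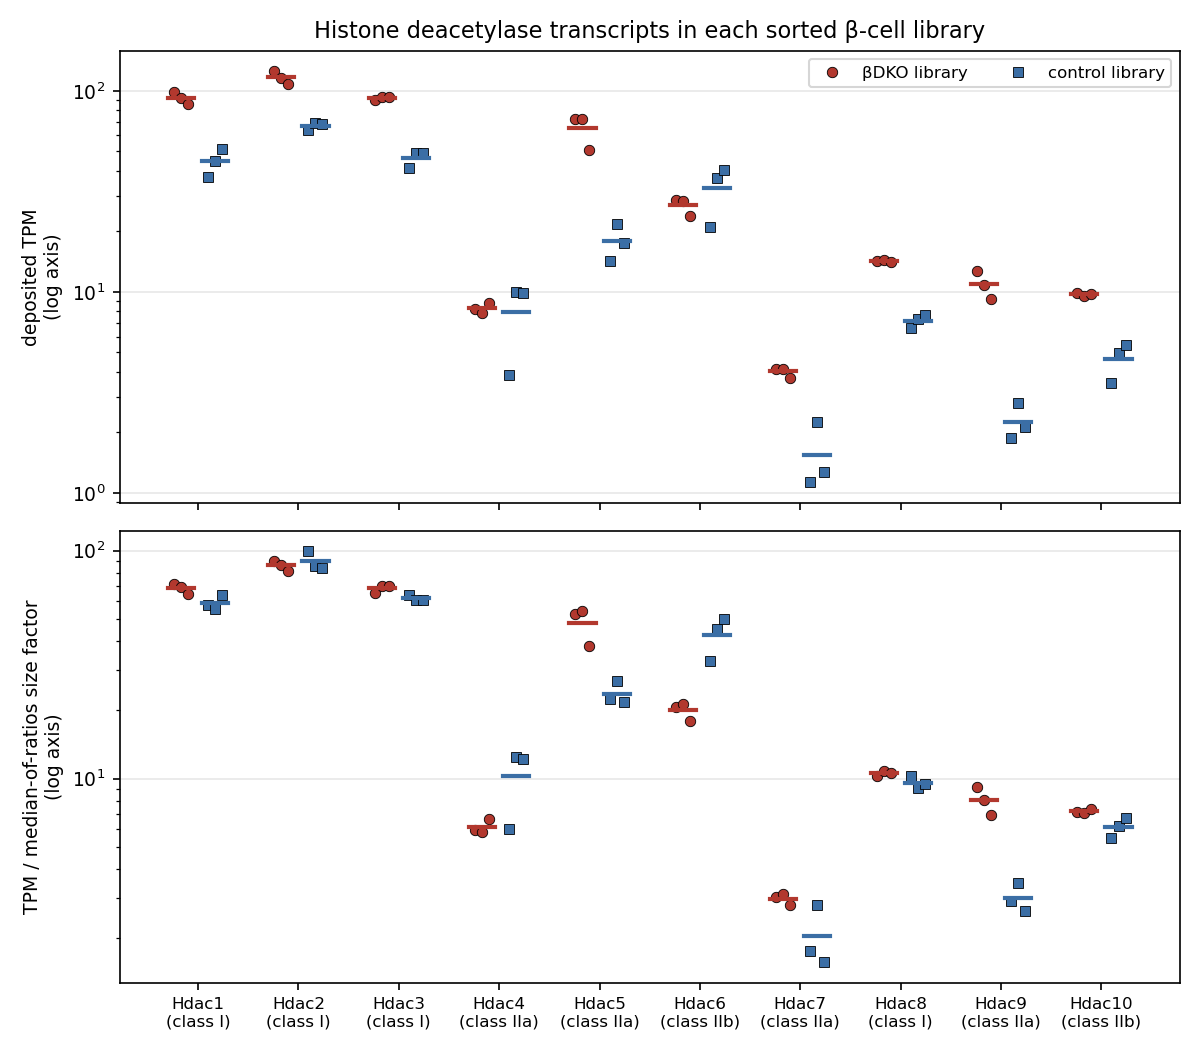
Level of each deacetylase in each of the 6 libraries (log axes), as deposited TPM above and as TPM divided by the median-of-ratios size factor below. Points are libraries and bars are group means. On TPM every βDKO library is above every control library for Hdac1, Hdac2, Hdac3, Hdac5, Hdac7, Hdac8, Hdac9 and Hdac10, and the groups overlap for Hdac4 and Hdac6. After rescaling the groups are well apart for Hdac5, Hdac6 and Hdac9.

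The 4 class I enzymes were all higher on TPM, and none passed the threshold after rescaling. Over all genes tested, 81.4% were called higher on TPM, and 44.5% were called in either direction after rescaling. Hdac1, a catalytic subunit of NuRD, CoREST and Sin3 (chromosome 4, 129516104 to 129542713, minus strand), was at 98.3, 92.6 and 86.3 TPM in βDKO 1 to 3, against 37.2, 44.9 and 51.6 TPM in controls 1 to 3. Its groups did not overlap on either scale, with rescaled values of 64.6 to 71.2 in βDKO and 55.6 to 63.8 in controls. On TPM its log2 fold change stood at 1.04 (SE 0.13, limma adjusted p = 2.03e-04), and on the rescaled scale 0.21 (95% interval 0.00085 to 0.41, limma adjusted p = 0.0939).

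Hdac2, the close paralog of Hdac1 in the same complexes (chromosome 10, 36974544 to 37001889, plus strand), was at 125.0, 116.3 and 108.5 TPM in βDKO 1 to 3, against 64.0, 69.2 and 68.3 TPM in controls 1 to 3. The groups did not overlap on TPM but did after rescaling, at 81.2 to 90.5 in βDKO and 84.3 to 99.6 in controls. In log2 terms the difference was 0.79 on TPM (SE 0.09, limma adjusted p = 1.44e-04) and −0.06 when rescaled (95% interval −0.28 to 0.17, limma adjusted p = 0.662). The ratio of Hdac1 to Hdac2, in which library scaling cancels, was 0.786, 0.796 and 0.795 in βDKO 1 to 3 and 0.581, 0.649 and 0.756 in controls 1 to 3. It was higher in all βDKO libraries than in any control, while the spread among controls was the wider of the groups.

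Hdac3, the enzyme of the NCoR complex (chromosome 18, 37935844 to 37955016, minus strand), was at 90.1, 93.7 and 93.2 TPM in βDKO 1 to 3, against 41.2, 48.9 and 49.0 TPM in controls 1 to 3. Its βDKO libraries were nearly level with each other and averaged 1.99-fold the controls on TPM, with no overlap. The log2 fold change on TPM came to 0.98 (SE 0.10, limma adjusted p = 8.31e-05), and the rescaled one to 0.14 (95% interval −0.04 to 0.33, limma adjusted p = 0.174).

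Hdac8, which acts outside those complexes and deacetylates the cohesin subunit Smc3 (chromosome X, 102284639 to 102505359, minus strand), was at 14.2, 14.5 and 14.2 TPM in βDKO 1 to 3, against 6.62, 7.34 and 7.66 TPM in controls 1 to 3. The groups were apart on TPM and overlapped after rescaling. On TPM its log2 fold change stood at 0.90 (SE 0.13, limma adjusted p = 3.6e-04), and on the rescaled scale 0.12 (95% interval −0.11 to 0.36, limma adjusted p = 0.354). It rested on the fewest reads of the family, 251 to 262 in βDKO libraries and 153 to 195 in controls. At 153 reads the 95% Poisson interval runs from 84.8% to 117.2% of the count, and at the 15276 reads of Hdac5 in βDKO 1 from 98.4% to 101.6%.

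The class IIb genes went different ways. Hdac6, which deacetylates tubulin and carries ubiquitinated proteins to aggresomes (chromosome X, 7930120 to 7947889, minus strand), was at 28.5, 28.5 and 23.9 TPM in βDKO 1 to 3, against 21.03, 36.7 and 40.4 TPM in controls 1 to 3. Control 1 was below all βDKO libraries on TPM and the other controls were above them. After rescaling every βDKO library was below every control, at 20.7, 21.2 and 17.8 in βDKO 1 to 3 and 32.7, 45.5 and 49.95 in controls 1 to 3. In log2 terms the difference was −0.22 on TPM (SE 0.23, limma adjusted p = 0.385) and −1.05 when rescaled (SE 0.16, limma adjusted p = 0.0014). Without control 1 it was −0.51 (limma adjusted p = 0.00391) on TPM. Of 10404 genes, 4.61% were called lower on both scales and 21.1% after rescaling.

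Hdac10, which removes acetyl groups from polyamines (chromosome 15, 89123307 to 89128700, minus strand), was at 9.87, 9.51 and 9.81 TPM in βDKO 1 to 3, against 3.54, 4.99 and 5.45 TPM in controls 1 to 3. The βDKO libraries were tightly grouped above all controls. The log2 fold change on TPM came to 0.94 (SE 0.17, limma adjusted p = 0.00109), and the rescaled one to 0.20 (95% interval −0.07 to 0.47, limma adjusted p = 0.191). Under the filter of 1 TPM, which does not rest on the βDKO values, the limma adjusted p was 0.00136 on TPM and 0.193 after rescaling. The ratio of Hdac10 to Hdac6 was 0.346, 0.334 and 0.411 in βDKO 1 to 3, against 0.168, 0.136 and 0.135 in controls 1 to 3, a mean 2.49-fold higher in βDKO whatever the library scale. Likewise the ratio of Hdac5 to Hdac4 was 8.83, 9.25 and 5.75 in βDKO 1 to 3, against 3.70, 2.16 and 1.77 in controls 1 to 3. That of Hdac9 to Hdac4 was 1.54, 1.37 and 1.05 in βDKO 1 to 3, against 0.485, 0.279 and 0.214 in controls 1 to 3. These pairs were chosen after their values were seen, and the ratios are given without a test.

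Levels of different members can be compared only as far as the length behind TPM is right, and for this family it was uneven. The length implied by each gene's recovered reads and TPM was set against its longest GENCODE transcript, with genes of a single curated RefSeq transcript at a median of 1. The quotient rose with the number of RefSeq transcripts, to a median of 2.90 for the 589 genes with 6 or more. It was 6.60 for Hdac7, 3.70 for Hdac5, 3.59 for Hdac10, 1.66 for Hdac6 and 1.62 for Hdac9, against 0.497 to 0.987 for Hdac1, Hdac2, Hdac3, Hdac4 and Hdac8. TPM therefore sets Hdac7, Hdac5 and Hdac10 low relative to the others. Changes of a gene between groups do not depend on this length, apart from the filter and the pseudocount.

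**Figure D3:**
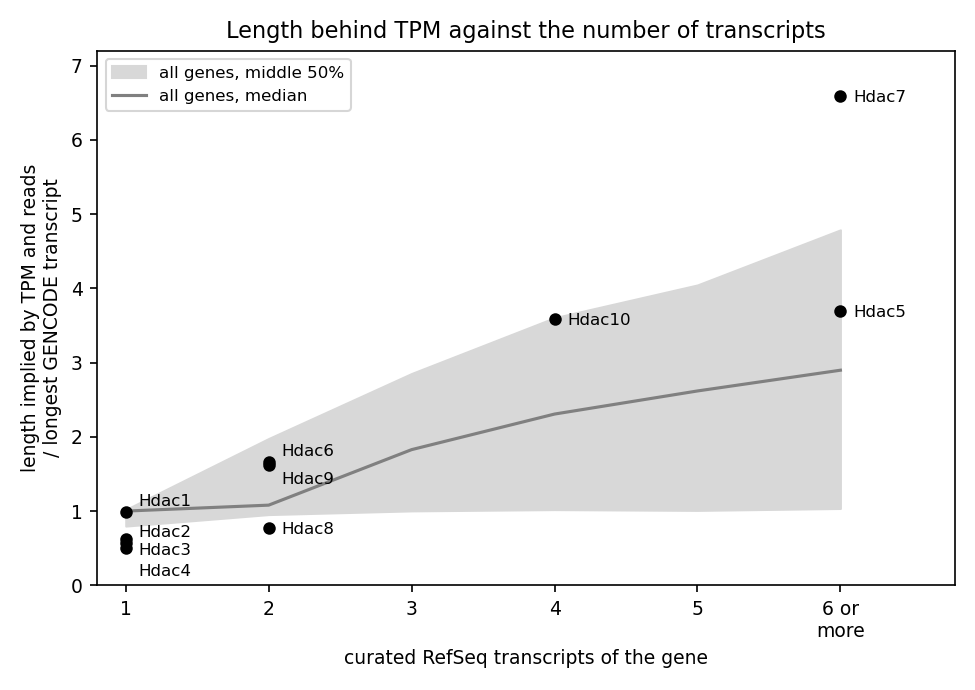
Length implied by TPM and recovered reads, divided by the longest GENCODE transcript, against the number of curated RefSeq transcripts of a gene. Black points are the 10 deacetylases, the grey line and band are the median and the middle 50% of all genes, and Hdac7 (6.60), Hdac5 (3.70) and Hdac10 (3.59) stand highest among the members.

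On the TPM scale the order of mean levels in βDKO was Hdac2, Hdac1, Hdac3, Hdac5, Hdac6, Hdac8, Hdac9, Hdac10, Hdac4 and Hdac7. In controls it was Hdac2, Hdac3, Hdac1, Hdac6, Hdac5, Hdac4, Hdac8, Hdac10, Hdac9 and Hdac7. On recovered reads per kilobase of the longest transcript, scaled to library depth (RPKM), Hdac5 came first in both groups, at 89.3 ± 16.95 RPKM in βDKO and 31.95 ± 5.06 RPKM in controls (SD, n = 3 each). In βDKO it was followed by Hdac1 (33.6 ± 1.88), Hdac2 (27.0 ± 1.64), Hdac3 (19.4 ± 0.67), Hdac6 (16.5 ± 1.59), Hdac10 (12.9 ± 0.16), Hdac7 (9.78 ± 0.56), Hdac9 (6.51 ± 0.95), Hdac8 (4.09 ± 0.09) and Hdac4 (1.52 ± 0.09), and no neighbours in that order overlapped over their 3 libraries. In controls the next were Hdac6 (26.1 ± 6.92 RPKM), Hdac1 (21.3 ± 2.38) and Hdac2 (20.5 ± 0.51), whose ranges overlapped from Hdac5 down to Hdac2. Below them were Hdac3 (12.8 ± 0.43 RPKM), Hdac10 (8.06 ± 1.28), Hdac7 (4.93 ± 1.76), Hdac8 (2.71 ± 0.07), Hdac4 (1.88 ± 0.76) and Hdac9 (1.78 ± 0.30). Of these, Hdac10 and Hdac7 overlapped, as did Hdac4 and Hdac9. The RPKM order has limits of its own. It rests on recovered reads, known only up to 1 constant per gene, and on the longest transcript as the length. That length exceeded the one implied by TPM for Hdac2, Hdac3, Hdac4 and Hdac8 (quotients 0.629, 0.571, 0.497 and 0.776).

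Class IIa made up a larger share of the family, and class IIb a smaller one, in all βDKO libraries than in any control, in a design too small for the test to pass 0.05. The share of a class in the summed level of the 10 members does not depend on how libraries are scaled. Class IIa held 21.1%, 21.2% and 17.8% of the summed TPM in βDKO 1 to 3, against 10.9%, 14.8% and 12.2% in controls 1 to 3. Class IIb held 8.28%, 8.43% and 8.24% in βDKO 1 to 3, against 12.6%, 16.8% and 18.1% in controls 1 to 3. Neither class overlapped between the groups. The class IIa difference lay mostly in Hdac5, which averaged 14.8% of the summed TPM in βDKO and 7.67% in controls. Hdac9 averaged 2.46% in βDKO and 0.975% in controls, and Hdac4 1.90% in βDKO and 3.31% in controls. The class IIb difference lay in Hdac6, at 6.10% in βDKO and 13.8% in controls, while Hdac10 was at 2.21% in βDKO and 1.99% in controls. The two-sided exact permutation p was 0.1 for each (0.15 adjusted over 3 classes), the smallest that 3 against 3 libraries allow. Class I held 71.7 ± 1.997% in βDKO and 71.6 ± 4.35% in controls (SD, n = 3 each, exact permutation p = 1). Because the length behind TPM differs among members of each class, the shares were also taken on recovered reads per kilobase of the longest transcript, an alternative added after seeing the data. Class IIa then held 48.3 ± 3.49% in βDKO and 30.6 ± 3.43% in controls, class IIb 13.4 ± 0.772% in βDKO and 25.6 ± 3.75% in controls, and class I 38.3 ± 2.72% in βDKO and 43.7 ± 4.31% in controls (SD, n = 3 each). The exact permutation p was 0.1, 0.1 and 0.2 for these (0.15, 0.15 and 0.2 adjusted). The summed level of all 10 members was 441.0 ± 28.9 TPM in βDKO and 232.4 ± 32.6 TPM in controls, and on the rescaled scale 325.9 ± 17.5 in βDKO and 308.0 ± 4.95 in controls (SD, n = 3 each).

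**Figure D4:**
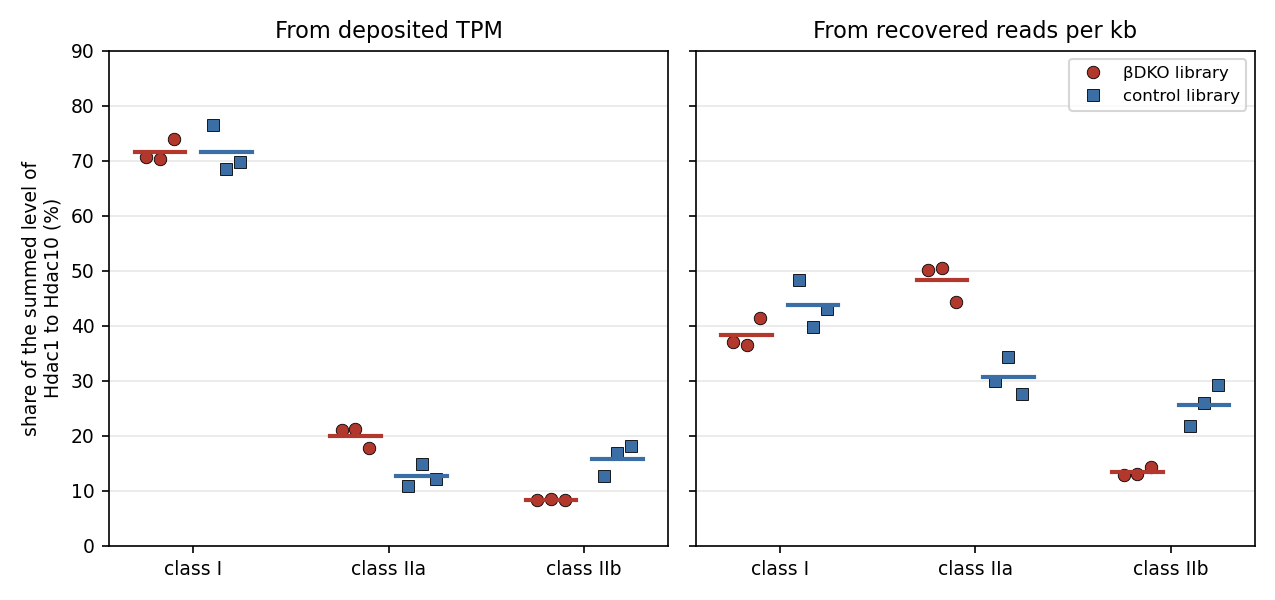
Share of each deacetylase class in the summed level of Hdac1 to Hdac10 in every library, from deposited TPM on the left and from recovered reads per kilobase on the right, with bars for group means. In both panels all βDKO libraries are above all controls for class IIa and below them for class IIb, while class I overlaps.

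The corepressor complexes NuRD, CoREST, Sin3 and NCoR each had subunits called higher and subunits called lower after rescaling. The 12 lists of partners and opposing enzymes together had 88 genes tested. By limma, 74 were higher and 0 lower on TPM, where 81.4% and 4.61% of all genes were. By unadjusted p under 0.05, 0 of the 88 were lower on TPM too. Rescaled, 24 were higher (27.3%) and 22 lower (25%), where 23.4% and 21.1% of all genes were. All 24 were higher on both scales, as was every one of the 2432 genes called higher after rescaling. Of the 88 genes, 6 had no control library at the filter and so had to differ to be tested. The median log2 fold change of the 88 was 0.89 on TPM and 0.08 rescaled, where all genes had 0.83 and 0.03. Of 12 tested NuRD subunits, 10 were higher on TPM, while rescaling left 3 higher and 8 lower. The remodelling ATPases of NuRD parted. Chd3 rose to 249.0 ± 33.5 TPM in βDKO, against 51.6 ± 16.6 TPM in controls (SD, n = 3 each, log2 2.29 on TPM and 1.45 after rescaling, limma adjusted p = 3.71e-04), the largest change of the list. Chd4 was at 82.3 ± 8.57 TPM in βDKO and 73.9 ± 19.8 TPM in controls, with a rescaled log2 fold change of −0.65 (limma adjusted p = 0.00522). The scaffold Mta2 (−0.24) and the histone-binding Rbbp4 (−0.26) were lower after rescaling and higher on TPM, whereas Mbd3, a methyl-CpG-binding family protein, rose (1.06 on TPM and 0.22 after rescaling, limma adjusted p = 0.0472).

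All 8 CoREST subunits were higher on TPM, where 81.4% of all genes were, while rescaling left 4 higher and 1 lower, where 23.4% and 21.1% of all genes were. Rcor3, 1 of the 8, passed the filter only through its βDKO values. Rcor2, a CoREST scaffold, rose to 38.3 ± 10.2 TPM in βDKO, against 7.87 ± 3.07 TPM in controls (SD, n = 3 each, log2 2.18 on TPM and 1.39 after rescaling, limma adjusted p = 0.0166). Its paralog Rcor1 had log2 fold changes of 1.13 on TPM and 0.31 (limma adjusted p = 0.125) after rescaling. Kdm1a, the histone demethylase of the complex, was higher on TPM (0.46) and lower after rescaling (−0.39, limma adjusted p = 0.0062). Of 13 tested Sin3 subunits, 10 were higher on TPM, while rescaling left 4 higher and 4 lower. Ing1, 1 of the 13, passed the filter only through its βDKO values. The scaffold Sin3a rose (1.23 and 0.45), as did Arid4a (1.23 and 0.45, limma adjusted p = 0.0272 after rescaling), and Sin3b had 0.90 on TPM and 0.07 (limma adjusted p = 0.59) after rescaling.

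Of 5 NCoR subunits, 3 were higher on TPM, while rescaling left 1 higher and 1 lower. Over all genes tested these shares were 81.4%, 23.4% and 21.1%. The WD-repeat paralogs of the complex parted. Tbl1xr1 rose to 11.9 ± 1.72 TPM in βDKO, against 2.38 ± 0.423 TPM in controls (SD, n = 3 each, log2 1.93 on TPM and 1.24 after rescaling, limma adjusted p = 2.6e-04), and it passed the filter only through its βDKO values. Tbl1x was at 86.6 ± 10.8 TPM in βDKO and 75.5 ± 15.7 TPM in controls, with a rescaled log2 fold change of −0.63 (limma adjusted p = 0.00362). The scaffold Ncor1 had log2 fold changes of 0.83 on TPM and 0.01 (limma adjusted p = 0.954) after rescaling. Of 3 MiDAC subunits, all were higher on TPM and 1 after rescaling. Trerf1, a zinc-finger subunit, rose by 1.98 on TPM and 1.23 after rescaling on the log2 scale (limma adjusted p = 9.3e-04 after rescaling).

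Genes that act on class IIa enzymes were examined next. Of 4 Mef2 factors, 2 were tested and both were called higher on TPM, but Mef2a passed the filter only through its βDKO values. Mef2d rose to 166.9 ± 8.37 TPM in βDKO, against 64.7 ± 12.9 TPM in controls (SD, n = 3 each, log2 1.37 on TPM and 0.53 after rescaling, limma adjusted p = 0.00248), and Mef2a had 1.02 on TPM and 0.31 (limma adjusted p = 0.14) after rescaling. Mef2c was at 0.147 ± 0.0686 TPM in βDKO and 0.173 ± 0.0191 TPM in controls and was not tested. Of 10 tested kinases known to phosphorylate class IIa enzymes, 9 were higher on TPM, while rescaling left 4 higher and 2 lower. Prkd2, 1 of the 10, passed the filter only through its βDKO values. Camk2b, a calcium/calmodulin-dependent kinase, rose to 212.2 ± 15.2 TPM in βDKO, against 46.5 ± 6.17 TPM in controls (SD, n = 3 each, log2 2.17 on TPM and 1.33 after rescaling, limma adjusted p = 1.3e-05). Sik2 rose (1.496 and 0.701, limma adjusted p = 0.00436 after rescaling), Sik1 had 1.35 on TPM and 0.53 (limma adjusted p = 0.252) after rescaling, and the protein kinase D gene Prkd1 had 0.42 on TPM and −0.42 (limma adjusted p = 0.0359) after rescaling. Camk4 was not tested, at 0.773 to 1.63 TPM in βDKO and 0.0291 to 0.255 TPM in controls. Of 6 tested 14-3-3 genes, 5 were higher on TPM. Rescaled, limma called 0 higher (0 by unadjusted p under 0.05 and 0 by limma-voom) and 1 lower, and Ywhae had 0.77 on TPM and −0.08 (limma adjusted p = 0.549) after rescaling.

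Hdac11 and the sirtuins, NAD-dependent deacylases, had 7 of 8 members higher on TPM, while rescaling left 3 higher and 1 lower, near the shares of all genes (81.4% on TPM, 23.4% and 21.1% rescaled). Hdac11, the single class IV enzyme, was at 107.3 ± 5.39 TPM in βDKO and 56.7 ± 1.52 TPM in controls (SD, n = 3 each), with log2 fold changes of 0.91 on TPM and 0.06 (limma adjusted p = 0.69) after rescaling. The mitochondrial Sirt5 rose (1.63 and 0.83, limma adjusted p = 0.00927 after rescaling), while the nuclear Sirt1 had 0.67 on TPM and −0.06 (limma adjusted p = 0.737) after rescaling and Sirt6 1.11 on TPM and 0.30 (limma adjusted p = 0.0505) after rescaling. All 10 histone acetyltransferases were higher on TPM, near the 81.4% of all genes. By limma 1 stayed higher and 0 were lower when rescaled, with 1 lower by unadjusted p under 0.05 and 1 by limma-voom. The higher gene was Ep300, at 50.3 ± 5.85 TPM in βDKO and 18.5 ± 6.99 TPM in controls (SD, n = 3 each, log2 1.47 on TPM and 0.65 after rescaling, limma adjusted p = 0.0311). Its paralog Crebbp had 1.09 on TPM and 0.29 (limma adjusted p = 0.392) after rescaling, and Kat2b 0.57 on TPM and −0.25 (limma adjusted p = 0.0563). Of 4 BET family readers of acetyl-lysine, 3 were higher on TPM, while rescaling left 1 higher and 1 lower. Brdt, which passed the filter only through its βDKO values, had 1.36 on TPM and 0.68 (limma adjusted p = 0.00908) after rescaling.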

How the data were processed

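RNA-seq of 6 libraries was analysed, 3 βDKO and 3 control. The values the authors deposited are TPM, per the file headers, in 1 column per library. The submitters' processing notes list HISAT2, HTSeq, DESeq2, Trimmomatic and FastQC beside mm10, without roles. Neither annotation nor strand use is stated there.

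The filter, 5 TPM or more in 3 or more libraries, left 10404 of 24421 rows. Values entered limma 3.58.1 (R 4.3.3) as log2(TPM + 1), with robust empirical Bayes, a mean-variance trend and group as the single factor, two-sided, with Benjamini-Hochberg adjustment over all genes kept and a threshold of 0.05. The same fit was run on TPM divided by median-of-ratios size factors. No count test was the main one, since TPM are not counts. The scripts were checked on simulated reads.

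Whole reads were recovered from TPM for 16625 of 16625 rows above 0 in at least 2 libraries, to a tolerance of 0.01 read, and known only up to 1 constant per gene. They served for depth, for levels per kilobase and for limma-voom. Intervals on reads cover counting error only.

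Positions come from GENCODE M21 and promoters from RefSeq, both on GRCm38. The members, gene lists and tests were chosen with earlier results of these data known. Genes named outside the family are fixed examples of each list plus its largest change past the threshold on both scales, and some of these examples are not reported here.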

Additional observations from a re-analysis of the deposited data

How the results depend on the processing

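Hdac5, Hdac6 and Hdac9 kept their direction and their call on the rescaled scale in every alternative in which they were tested, at 0.89 to 1.15, −1.22 to −0.92 and 0.70 to 1.41 on the log2 scale. Of the members tested on TPM (7 higher, 0 lower), 2 were higher and 1 lower with median-of-ratios scaling, and 2 and 1 when hormone transcripts were left out of the scaling. Under these scalings Hdac2 on TPM turned to −0.057 and −0.088 and Hdac4 to −0.59 and −0.62. Leaving out 1 library at a time under the filter of 5 TPM gave 0 to 1 lower members on TPM, and 1 to 2 higher and 1 to 2 lower members when rescaled. Under the filter of 1 TPM it gave 2 to 3 higher when rescaled, 3 without control 2 (Hdac7 added). The 1 higher came without any single βDKO library, or with βDKO 1 and 2 averaged (1), because Hdac9 then missed the filter. Those 2 libraries were the closest pair within a group, with an SD of log2 differences over genes of 0.155 after rescaling. The other βDKO pairs had 0.286 and 0.289, and control pairs 0.347 to 0.476. Without control 1, with either filter, 1 member was lower on TPM (Hdac6) and 2 when rescaled (Hdac4 added), Hdac4 on TPM was −0.24 and Hdac2 rescaled 0.0199. Over the libraries left out, Hdac4 on TPM ranged from −0.24 to 0.35 and Hdac2 rescaled from −0.105 to 0.0199. The class I share difference, 0.10 points on TPM, ranged from −1.45 to 2.59, and was −5.25 on recovered reads and −5.41 per kilobase. That of class IIa was 20.7 and 17.7 and that of class IIb −15.5 and −12.3 on the same 2 measures. Genes called higher when rescaled numbered 1211 to 2622 with 1 library left out, against 2432 with all. The cause of these shifts was not tested beyond the filter named. The replicate numbers do not pair the libraries (same-number correlations −0.08, −0.02 and 0.20), and with replicate number as a block 2 members were lower when rescaled, Hdac4 at an adjusted p of 0.0496. Depth limits Hdac8 and Hdac4 most, and 3 libraries a group limit all results.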

Other observations

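Genes of polyamine metabolism, which makes and consumes the substrates of Hdac10, were examined too. Of 7 tested by limma, 4 were higher and 0 lower on TPM (0 lower by unadjusted p under 0.05), while rescaling left 1 higher and 3 lower. On TPM 81.4% of all 10404 genes tested went up by the same rule and 4.61% went down. Rescaled, these shares were 23.4% and 21.1%. Odc1, ornithine decarboxylase, was at 121.3, 122.6 and 132.5 TPM in βDKO 1 to 3 and at 115.6, 149.0 and 155.6 TPM in controls 1 to 3. Its log2 fold change was −0.15 (limma adjusted p = 0.287) on TPM and −0.99 (limma adjusted p = 7.28e-05) after rescaling. Sat2, of the spermidine/spermine acetyltransferase family, rose to 40.3 ± 2.81 TPM in βDKO, against 16.0 ± 0.773 TPM in controls (SD, n = 3 each). The log2 fold change of Sat2 was 1.28 (limma adjusted p = 4.81e-05) on TPM and 0.46 (limma adjusted p = 0.0141) after rescaling. Its paralog Sat1 had log2 fold changes of 1.19 on TPM and 0.36 (limma adjusted p = 0.0784) after rescaling.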
